A study of Mus musculus with 6 samples.

Results

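The genes described here are 10 that are used to mark microglia, the resident macrophages of the brain: Tmem119, Fcrls, P2ry12, P2ry13, Gpr34, Olfml3, Sall1, Tgfbr1, Cx3cr1 and Aif1. They were taken by symbol from a table of 55487 genes, and all 10 were found there. The set was selected on the measured log2 fold changes of the same comparison, since Fcrls and Tmem119 were known to differ in opposite directions. The differences between groups are therefore given for the members as a description and not as a test. The cells were not microglia but macrophages grown from mouse bone marrow. From marrow, TpMos (as the labels call them) or mature Ly6Chi monocytes were isolated and kept for 7 days in medium with CSF-1, the growth factor of macrophages, at a concentration that is not given per sample in the sources used here. There were 3 bulk RNA libraries of TpMo-derived macrophages and 3 of Ly6Chi-derived macrophages. Strain, genotype, age and the number of animals are not given in the sources used here, no group carried a labelled treatment beyond the culture, and no label ties a library to an animal or culture, so that the p-values reflect differences among libraries that may be technical replicates.

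Microglia share the machinery of other macrophages but carry a set of transcripts that mark them in the brain. Among these are receptors that sense nucleotides and lipids (P2ry12, P2ry13, Gpr34), the fractalkine receptor Cx3cr1, the membrane protein Tmem119, and the secreted or surface proteins Olfml3 and Fcrls. Signalling by the cytokine TGF-beta through the receptor chain Tgfbr1 maintains much of this set in vivo, and the zinc-finger transcription factor Sall1 is, among macrophages, largely particular to microglia. Aif1 encodes IBA1, an actin-binding calcium sensor that is widely stained to show microglia but is made by many macrophages. Microglia tend to lose the set in culture.

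The libraries held 23765773 to 33042094 counts on genes. Macrophage markers were abundant in both groups: the summed level of 8 fixed markers, mostly Lyz2, was 34774 to 36644 CPM (counts scaled to a common library total) in TpMo-derived and 29704 to 32311 CPM in Ly6Chi-derived libraries. At an edgeR adjusted p under 0.05, 4 of the 8 were higher in TpMo-derived macrophages (Adgre1, Csf1r, Fcgr1 and Cd14) and 1 lower (Itgam). Of all genes tested 6.54% were higher and 5.79% lower. Of the markers of other cells, the lymphocyte genes Cd3e, Cd3d and Cd79a, all 5 mast cell and basophil genes, and the neural genes Snap25, Rbfox3 and Mog had 0 counts in every library. Cd79b, of the same B cell list as Cd79a, was detected in every library, with 28 to 140 counts. The 6 B cell and plasma cell genes, mostly Cd79b, summed to 2.14 to 4.24 CPM in TpMo-derived and 1.04 to 4.31 CPM in Ly6Chi-derived libraries. Summed levels were 1.09 to 2.73 against 0.224 to 1.51 CPM for 8 neutrophil genes, 2.799 to 9.44 against 0.314 to 1.37 CPM for 6 T and NK cell genes, and 29.0 to 32.6 against 7.58 to 24.8 CPM for 6 stromal and endothelial genes, mostly Kdr. The T and NK cell sum was all Cd4 in the TpMo-derived libraries, whereas in Ly6Chi-derived replicates 1 and 2 Cd4 had 0 counts and Klrb1c made up all of it. The 5 megakaryocyte and platelet genes, mostly Pf4, summed to 117 to 242 against 31.2 to 44.9 CPM. Pf4, Cd4 and the endothelial gene Pecam1 were higher in TpMo-derived macrophages (edgeR adjusted p = 3.07e-04, 0.00640 and 0.0356). Cd4 had 312, 76 and 144 counts against 0, 0 and 10, and Pecam1 had 38, 21 and 16 counts against 0, 0 and 2. Both passed the count filter only through the TpMo-derived libraries where they are high. The filter thus fixed their direction, and their p-values are a description and not a test. Kdr was not called (edgeR adjusted p = 0.0878). The part of such cells in the values of the members was not tested. The summed level of 7 neural genes, mostly Mbp, was 41.1 to 73.8 against 57.4 to 60.4 CPM. In bulk samples fewer cells of a type and less RNA per cell cannot be told apart.

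As the promoter is the part of a gene where the factors that set its level can bind, the 250 bases before the RefSeq start of 3 members and of Cd5l are shown. Fcrls and Aif1 are members that were higher in TpMo-derived macrophages, Cx3cr1 is one that was lower, and Cd5l is the coding neighbour of Fcrls whose values are given later. The sequences are from RefSeq on GRCm38.p6, 5′ to 3′ on the gene's own strand. Capitals mark matches, on either strand, to 4 motifs: GAGGAAGT for PU.1, GAAANNGAA for part of the interferon-stimulated response element, CAGAC for SMAD proteins and TGCTGA for part of the MAF recognition element.
Fcrls, chr3:87263525-87263774, minus strand: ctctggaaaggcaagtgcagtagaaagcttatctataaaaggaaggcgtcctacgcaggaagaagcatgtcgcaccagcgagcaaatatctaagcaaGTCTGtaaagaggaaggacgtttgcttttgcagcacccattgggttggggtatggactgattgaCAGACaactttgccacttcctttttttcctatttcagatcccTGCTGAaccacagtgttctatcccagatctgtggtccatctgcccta
Cd5l, chr3:87357631-87357880, plus strand: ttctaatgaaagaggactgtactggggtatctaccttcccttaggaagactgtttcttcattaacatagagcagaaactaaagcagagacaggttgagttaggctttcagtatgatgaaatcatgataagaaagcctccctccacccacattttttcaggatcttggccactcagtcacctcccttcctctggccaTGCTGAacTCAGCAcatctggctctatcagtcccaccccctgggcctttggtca
Aif1, chr17:35176053-35176302, minus strand: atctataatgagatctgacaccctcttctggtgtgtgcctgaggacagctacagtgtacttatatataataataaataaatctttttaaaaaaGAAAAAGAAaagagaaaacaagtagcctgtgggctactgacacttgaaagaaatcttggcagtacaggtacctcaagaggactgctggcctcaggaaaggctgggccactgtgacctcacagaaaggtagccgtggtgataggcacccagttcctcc
Cx3cr1, chr9:120068297-120068546, minus strand: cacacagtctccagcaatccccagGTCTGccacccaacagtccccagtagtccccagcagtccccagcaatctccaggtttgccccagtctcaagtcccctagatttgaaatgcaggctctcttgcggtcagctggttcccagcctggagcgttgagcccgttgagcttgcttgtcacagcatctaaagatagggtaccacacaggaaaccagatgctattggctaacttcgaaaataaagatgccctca
The Fcrls window held 2 matches to the SMAD letters and 1 to the MAF letters, the last of these starting 47 bases before the RefSeq start. For Fcrls and Cx3cr1 the RefSeq start lies inside the longer span of the deposited annotation, so that most or all of the window is within the gene as counted. In the Cd5l window there were 2 matches to the MAF letters, which do not overlap, starting 54 and 46 bases before the start. The Aif1 window held 1 match to the letters of the response element and the Cx3cr1 window 1 to the SMAD letters. Of the members not shown, Tgfbr1, which was lower in TpMo-derived macrophages, has 2 windows. The window inside the gene as counted held 2 matches to the MAF letters and 1 to the SMAD letters, which shares bases with 1 of the MAF matches. The window just before the annotated start held none. P2ry12 and 1 of 3 windows of Sall1 held 1 match each to the SMAD letters, and P2ry13 and Olfml3 held none. Among all 32851 promoter windows of this length, 42.2% held the SMAD letters, 16.1% those of MAF, 7.13% those of the response element and 2.44% those of PU.1. Such matches describe letters, not bound sites. RefSeq promoters were matched for 8 of the 10 members, and those of Tmem119 and Gpr34 were not.

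Per length, Fcrls had the highest level of the members in TpMo-derived macrophages, and Tmem119 was among the lowest of those detected. The groups did not overlap for 6 of the 9 detected members, of which 3 were higher (Fcrls, Aif1 and Gpr34) and 3 lower (Tmem119, Cx3cr1 and Tgfbr1) in TpMo-derived macrophages. Of the 13140 genes tested, 30.5% did not overlap, 15.3% higher and 15.2% lower. Sall1 had no counts in any library. At an adjusted p under 0.05 in edgeR's quasi-likelihood test over all genes, 2 of the 9 members were called higher (Fcrls and Aif1) and 3 lower (Tmem119, Cx3cr1 and Tgfbr1), where 12.3% of all genes tested were called, 6.54% higher and 5.79% lower. As the members were chosen with this comparison known, nothing is read from either count. The median log2 fold change of the 9 members was -0.50, against 0.01 for all genes tested, and the median of its size without sign was 0.81 against 0.30. Each of the 5 calls also held in the 12 alternative fits, which changed scaling, filter or test or left out 1 library.

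**Figure D1:**
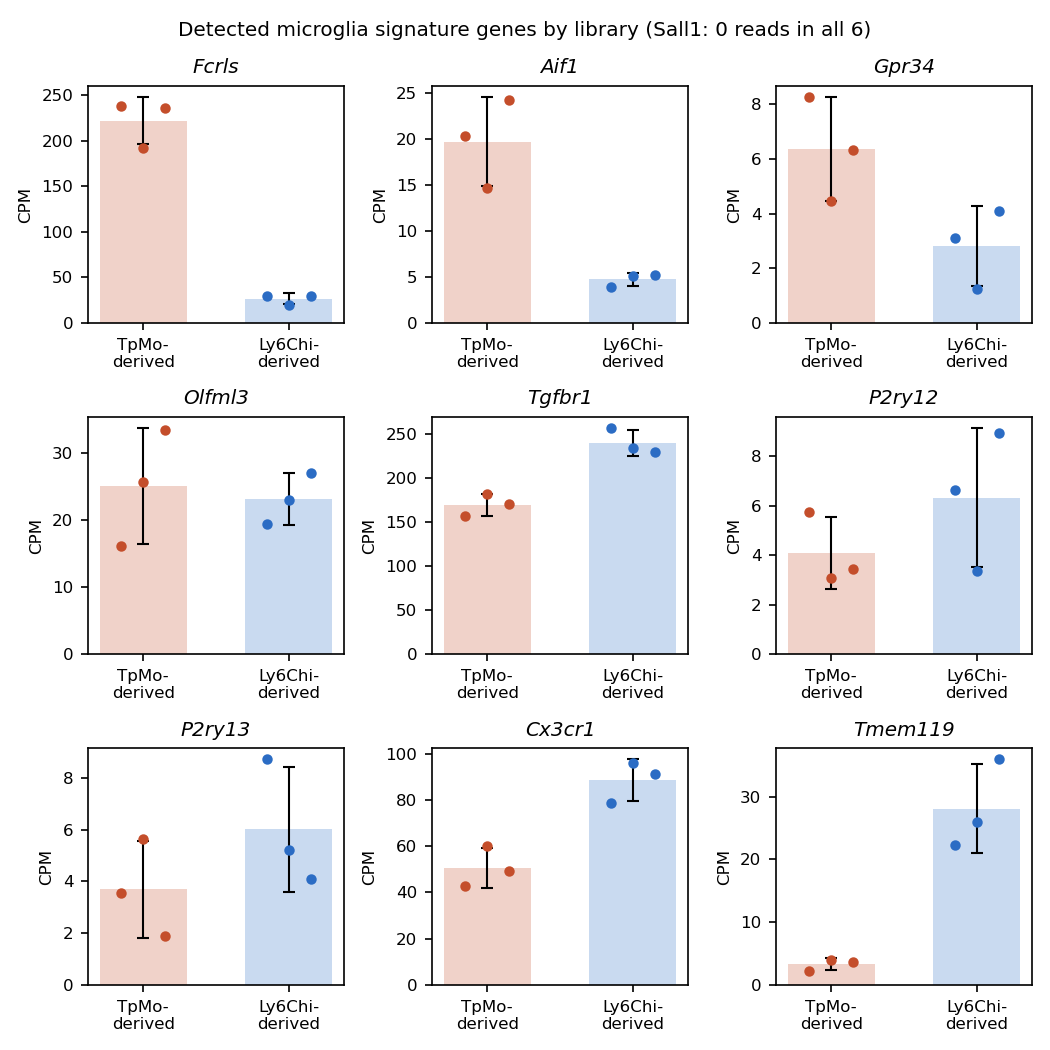
CPM scaled to TMM-adjusted totals (vertical axis, linear from 0) of the 9 detected members in each library. Points are libraries, bars the group means and error bars the SD over 3 libraries. Fcrls stands near 222 CPM in TpMo-derived and near 26.4 CPM in Ly6Chi-derived macrophages, Tmem119 near 3.32 and 28.0 CPM, and Olfml3, P2ry12 and P2ry13 overlap between groups.

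Of the receptors and surface proteins, Fcrls, an Fc receptor-like protein with a scavenger receptor domain (ENSMUSG00000015852.13, chromosome 3, 87250758 to 87263738, minus strand, GRCm38), had 7750, 5180 and 5439 counts in the TpMo-derived libraries and 826, 530 and 959 in the Ly6Chi-derived ones. On the TMM-adjusted scale these were 238, 192 and 236 CPM against 30.0, 19.4 and 29.8 CPM. The lowest TpMo-derived library was far above the highest Ly6Chi-derived one. The log2 fold change was 3.07 ± 0.17 (SE), or 8.40-fold.

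Tmem119, a membrane protein that in the brain is used to tell microglia from other macrophages (ENSMUSG00000054675.5, chromosome 5, 113793729 to 113800516, minus strand), showed the reverse. Its counts were 72, 108 and 86 in TpMo-derived and 612, 710 and 1156 in Ly6Chi-derived libraries. As CPM these were 2.21, 4.01 and 3.73 against 22.2, 26.0 and 35.9. The groups lay far apart, with Ly6Chi-derived replicate 3 the highest library, and the log2 fold change was -3.09 ± 0.30 (SE), or 8.49-fold lower in TpMo-derived macrophages. The opposite differences of Fcrls and Tmem119 were therefore of nearly the same size. Because both transcripts come from the same library, their ratio does not depend on scaling. In TPM, which also divide the counts by exonic length, Fcrls exceeded Tmem119 by 107, 47.6 and 62.7 times in the TpMo-derived libraries, whereas the ratios were 1.34, 0.740 and 0.823 in the Ly6Chi-derived ones. The 2 marker transcripts stood at about equal levels per length in Ly6Chi-derived but not in TpMo-derived macrophages.

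Cx3cr1, the receptor of the neuronal and endothelial chemokine fractalkine, stood at 42.8, 59.8 and 49.3 CPM in TpMo-derived and 78.6, 95.8 and 91.3 CPM in Ly6Chi-derived libraries. These did not overlap, with a log2 fold change of -0.81 ± 0.14 (SE). The deposited table gives Cx3cr1 (ENSMUSG00000052336.7) a long span on chromosome 9, from 119901616 to 120069879 on the minus strand. It overlaps the coding genes Wdr48, Gorasp1, Ttc21a, Csrnp1 and Xirp1, and reads on exons of more than 1 gene were not counted. Of these, Wdr48, Gorasp1 and Csrnp1 had log2 fold changes of -0.39 ± 0.14, 0.10 ± 0.12 and -0.51 ± 0.35 (SE, none called), Ttc21a was too low to test and Xirp1 had no counts. What part such reads have in the level of Cx3cr1 was not tested.

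The purine receptors were low and did not separate the groups. P2ry12, the ADP receptor through which microglia turn their processes towards injury (chromosome 3, 59216272 to 59262871), stood at 5.74, 3.08 and 3.43 CPM in TpMo-derived and 6.64, 3.37 and 8.95 CPM in Ly6Chi-derived libraries. P2ry13, a second ADP receptor whose gene lies 5390 bases away, stood at 3.56, 5.64 and 1.91 CPM against 8.71, 5.20 and 4.10 CPM. In neither gene did the groups part: the lowest Ly6Chi-derived library of each was below the highest TpMo-derived one. The log2 fold changes were -0.63 ± 0.42 for P2ry12 and -0.69 ± 0.46 for P2ry13 (SE). Though adjacent, the genes did not rank the libraries alike, since P2ry12 was highest in Ly6Chi-derived replicate 3 and P2ry13 in Ly6Chi-derived replicate 1. Both lie within the span of Med12l on the other strand, and Med12l had 123 counts in all 6 libraries together, so its exons held few reads.

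Gpr34, a receptor for lysophosphatidylserine on the X chromosome (13632089 to 13640858), was at 8.26, 4.46 and 6.34 CPM in TpMo-derived and 3.12, 1.24 and 4.10 CPM in Ly6Chi-derived macrophages. The groups came close without overlapping, at 4.46 CPM in the lowest TpMo-derived library (120 counts) and 4.10 CPM in the highest Ly6Chi-derived one (132 counts). The log2 fold change was 1.17 ± 0.47 (SE), or 2.24-fold, and was not among those called. Gpr34 lies inside Cask, on the opposite strand, whose level was 23.2 ± 1.55 against 24.6 ± 2.92 CPM (SD, n = 3 each). Gpr82, the related receptor 20505 bases downstream, was at 0.468 ± 0.231 against 0.0968 ± 0.168 CPM and too low to test.

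**Figure D2:**
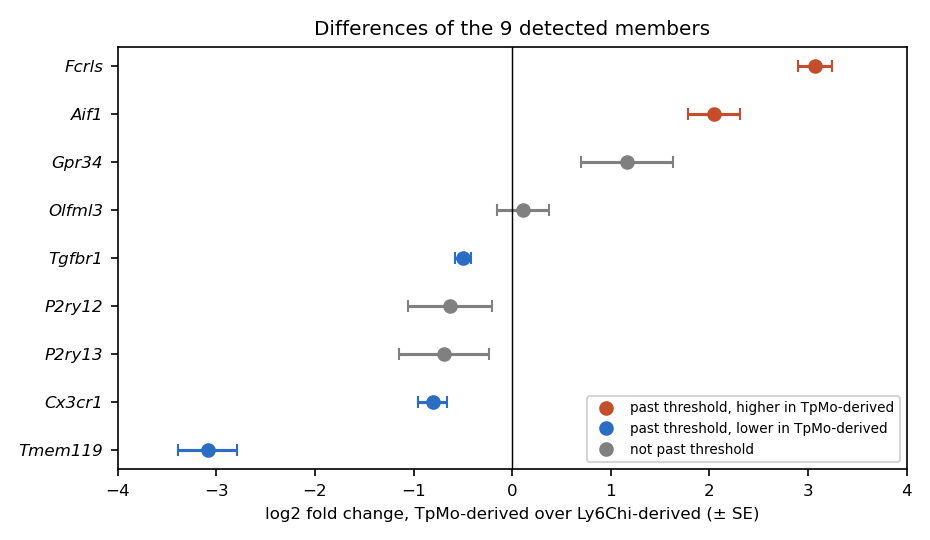
Log2 fold change of the 9 detected members (horizontal axis, TpMo-derived over Ly6Chi-derived, with SE from the edgeR fit). Colour gives the call over all genes at an adjusted p under 0.05, as a description. Fcrls (3.07) and Tmem119 (-3.09) lie at the ends, and Olfml3 (0.11) lies at 0 within its error.

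Olfml3, a secreted glycoprotein of the olfactomedin family (chromosome 3, 103722222 to 103738001, minus strand), was the member closest to no difference. It stood at 16.1, 25.7 and 33.4 CPM in TpMo-derived and 19.4, 23.1 and 27.1 CPM in Ly6Chi-derived libraries. The TpMo-derived values enclosed the others, and the log2 fold change was 0.11 ± 0.26 (SE). Its sign turned, to -0.15 without TpMo-derived replicate 3 and -0.01 without Ly6Chi-derived replicate 1.

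Aif1 (chromosome 17, 35170991 to 35176068, minus strand), whose protein IBA1 bundles actin in moving and engulfing macrophages, had 662, 395 and 559 counts in TpMo-derived and 109, 140 and 169 in Ly6Chi-derived libraries. As CPM these were 20.3, 14.7 and 24.3 against 3.96, 5.12 and 5.25. The groups did not overlap, and the log2 fold change was 2.04 ± 0.26 (SE), or 4.13-fold. The next genes on each side, Prrc2a and Lst1, had log2 fold changes of 0.21 ± 0.18 and 1.01 ± 0.38 (SE), and neither passed.

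Of the regulators, Tgfbr1 was the least variable member. This signalling chain of the TGF-beta receptor (chromosome 4, 47353222 to 47414931, plus strand) stood at 157, 182 and 171 CPM in TpMo-derived and 257, 234 and 230 CPM in Ly6Chi-derived macrophages. The difference was small, with a log2 fold change of -0.50 ± 0.08 (SE), but the libraries did not overlap. Sall1 (ENSMUSG00000031665.7, chromosome 8, 89027235 to 89044162) had 0 counts in all 6 libraries. With 3 counts as the floor, this allows a level of up to 0.0908 to 0.126 CPM per library, as far as counting error goes, and no fold change can be given. That floor takes counts as independent, and as mates count separately the level allowed may be higher.

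Per length, the order of the members changed between the groups. In TpMo-derived macrophages Fcrls came first at 315 ± 34.3 TPM (SD, n = 3), followed by Tgfbr1 at 86.0 ± 6.68, Aif1 at 42.6 ± 9.79, Cx3cr1 at 37.2 ± 6.54, Olfml3 at 13.4 ± 4.47, Gpr34 at 10.1 ± 3.03, P2ry12 at 5.31 ± 1.92, P2ry13 at 4.87 ± 2.51 and Tmem119 at 4.74 ± 1.37 TPM. Aif1 and Cx3cr1 overlapped each other there, and so did each neighbouring pair from Olfml3 down to Tmem119. In Ly6Chi-derived macrophages Tgfbr1 led at 127 ± 10.9 TPM, ahead of Cx3cr1 at 68.0 ± 5.48, Tmem119 at 41.8 ± 9.80, Fcrls at 39.2 ± 9.39, Olfml3 at 11.2 to 14.98, Aif1 at 10.8 ± 1.38, P2ry12 at 8.60 ± 3.77, P2ry13 at 8.28 ± 3.54 and Gpr34 at 4.68 ± 2.39 TPM. Tmem119 and Fcrls overlapped there, as did each neighbouring pair from Olfml3 down to Gpr34. Tmem119 thus moved from rank 9 to rank 3, and Fcrls from rank 1 to rank 4. Among the genes tested, mean Fcrls TPM lay at the 96.7th percentile in TpMo-derived and the 73.8th in Ly6Chi-derived macrophages, and Tmem119 at the 30.0th and the 75.1st.

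**Figure D3:**
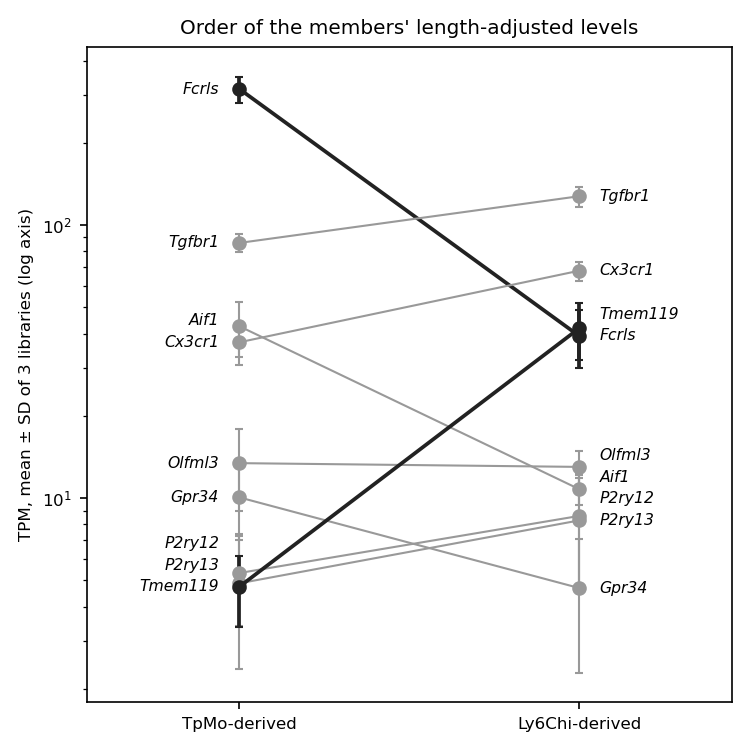
Mean TPM (vertical, log axis) of the 9 detected members in each group, with the SD over 3 libraries. Lines join the same gene and black marks Fcrls and Tmem119, which meet near 40 TPM in Ly6Chi-derived macrophages (39.2 and 41.8 TPM) and part to 315 and 4.74 TPM in TpMo-derived ones.

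Spread within a group was largest in the low members. The coefficient of variation over 3 libraries was 7.51% and 6.06% for Tgfbr1 in TpMo-derived and Ly6Chi-derived macrophages, 11.6% and 23.0% for Fcrls, and 50.5% and 40.1% for P2ry13. The biological coefficient of variation that edgeR fitted had a median of 23.1% over the 9 members and 20.7% over all genes tested.

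The position of the members on the chromosomes was not used to choose them, and it set Fcrls beside a gene with a similar fold change. Cd5l, a secreted scavenger receptor protein of tissue macrophages that keeps them alive, is the next coding gene, 94143 bases away (chromosome 3, 87357881 to 87371073, plus strand). It stood at 552, 550 and 515 CPM in TpMo-derived and 95.6, 55.0 and 46.3 CPM in Ly6Chi-derived libraries. No library of one group reached the other, and the fold was 8.22, or 3.04 ± 0.23 on the log2 scale (SE, edgeR adjusted p = 3.00e-05). The value lay within 1 SE of that of Fcrls, and the 2 genes were not tested against each other. Fcrl1, the Fc receptor-like gene beyond Cd5l, stood at 14.6 ± 5.07 against 13.5 ± 3.41 CPM (SD, n = 3 each), which overlapped. Kirrel, the nearest coding gene on the other side, had no counts.

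Tmem119 lies between Iscu, 15441 bases away, and Selplg, 18020 bases away, and Selplg is itself counted among microglia markers. Selplg, which encodes the selectin ligand PSGL-1, stood at 265, 281 and 238 CPM against 404, 352 and 390 CPM and fell in TpMo-derived macrophages, by -0.55 ± 0.08 on the log2 scale (SE, edgeR adjusted p = 0.00189). Iscu, an iron-sulphur cluster scaffold, did not pass, with -0.26 ± 0.17 (SE). The difference of Tmem119 was thus several times that of either neighbour on the log2 scale. Around Sall1, Cyld was expressed at 60.5 ± 11.1 and 61.1 ± 10.2 CPM (SD, n = 3 each) and Tox3 had no counts. Alg2, beside Tgfbr1, had a log2 fold change of 0.03 ± 0.21 (SE).

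**Figure D4:**
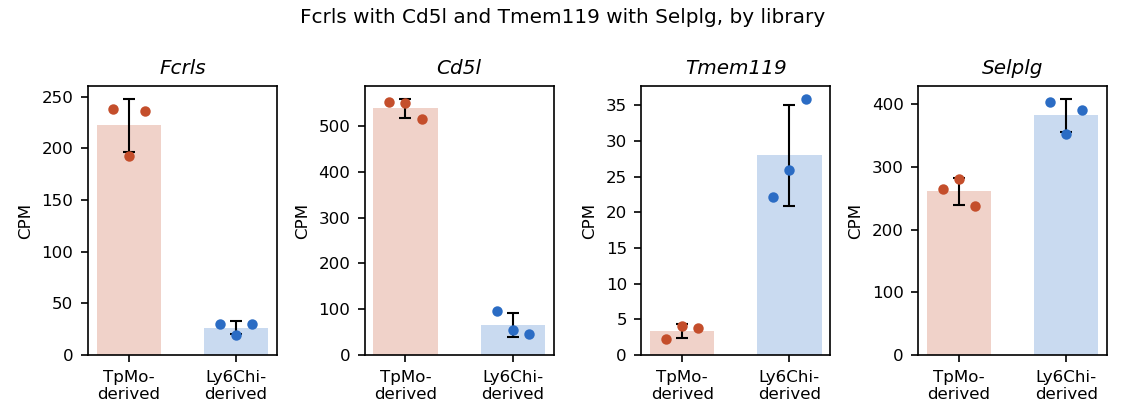
CPM (vertical axes, linear from 0) of Fcrls, Cd5l, Tmem119 and Selplg in each library, with group means as bars and the SD over 3 libraries as error bars. Fcrls and Cd5l are both high in the 3 TpMo-derived libraries (means 222 and 539 CPM), while Tmem119 and Selplg are both higher in the 3 Ly6Chi-derived ones, by 8.49-fold and 1.46-fold.

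The genes whose log2 CPM followed Fcrls most closely over the 6 libraries, among 9235 others with a mean of at least 5 CPM, were Hmgn1, Tap1, Lgmn, Eprs and Mthfd2, with Pearson correlations of 0.999, 0.998, 0.997, 0.996 and 0.996. For Tmem119 the first 4 were Gdf15, Itgal, H2afv and Gstm1, at 0.998, 0.997, 0.996 and 0.995. None of these 9 genes is a member or a gene beside one. These values describe 6 libraries in 2 groups that differ, so that any gene that differs cleanly between the groups correlates highly.

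Other homeostatic microglia genes went both ways, as the members did. Like the members, this list and those below were chosen with earlier results of these data known, so nothing is read from their called shares. Of 40 listed homeostatic genes 31 were tested, 5 rose and 5 fell in TpMo-derived macrophages and 21 did not pass. These were 32.3% of those tested, against 12.3% of all genes. Their median log2 fold change was -0.06, against 0.01 for all genes. The CSF-1 receptor Csf1r rose, to 3017 ± 63.2 CPM from 2119 ± 47.9 CPM (SD, n = 3 each, adjusted p = 8.33e-05), and so did the interferon-gamma receptor Ifngr1, to 346 ± 28.4 CPM from 222 ± 12.3 CPM (adjusted p = 6.19e-04). Selplg was among those that fell. The lipid-sensing receptor Trem2 was at 748 ± 44.7 against 746 ± 59.1 CPM. Of the listed genes, Siglech, Slc2a5, Nav3 and Upk1b had 0 counts in every library, like Sall1, and Sparc and Fscn1 were too low to test. The count of changed genes was 6 rather than 10 without Ly6Chi-derived replicate 1.

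Transcription factors linked to microglial identity were expressed without Sall1 and without its relative Sall3, which also had 0 counts. Of 14 tested, 2 rose and 3 fell, while 9 did not pass, and the median log2 fold change was 0.07. The called share was 35.7%, against 12.3% of all genes. Bhlhe40 and Bhlhe41, related repressors that work in resident macrophages, both fell: Bhlhe40 to 18.1 ± 6.07 from 77.6 ± 9.99 CPM and Bhlhe41 to 147 ± 14.7 from 288 ± 31.2 CPM (SD, n = 3 each). On the log2 scale these were -2.10 ± 0.22 and -0.97 ± 0.10 (SE), with an edgeR adjusted p of 2.24e-04 for Bhlhe40. Maf and Irf8 rose, with log2 fold changes of 0.55 ± 0.09 and 0.37 ± 0.07 (SE, adjusted p = 0.00259 and 0.00502). Spi1, which encodes PU.1, and Mef2a did not pass, with log2 fold changes of 0.17 ± 0.07 and -0.25 ± 0.08 (SE).

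In the rest of the TGF-beta pathway 1 of 25 genes tested rose and 1 fell, 23 did not pass, and the median log2 fold change was 0.00. The called share of 8.0% was near the 12.3% of all genes, and DESeq2 called 5 of the 25. Tgfbr2, the partner chain of Tgfbr1, stood at 118.5 ± 3.02 against 118.4 ± 10.4 CPM. Nrros, which presents latent TGF-beta on macrophages and microglia, rose to 793 ± 8.10 from 611 ± 10.2 CPM (adjusted p = 0.00117), and the SMAD repressor Skil fell to 158 ± 19.3 from 219 ± 20.4 CPM (SD, n = 3 each, adjusted p = 0.0170). Leaving out TpMo-derived replicate 1, Ly6Chi-derived replicate 2 or Ly6Chi-derived replicate 3 ended the call of Skil, at an adjusted p of up to 0.0738, and left a count of 1. The ligand Tgfb1 was low, at 4.82 ± 1.65 against 3.92 ± 1.54 CPM, as was the feedback inhibitor Smad7, at 4.28 ± 2.16 against 5.51 ± 2.25 CPM.

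Other receptors and enzymes of purine signalling gave 1 gene that rose and 2 that fell among 13 tested, or 23.1% against 12.3% of all genes. The median was -0.18, also with Adora2a at the floor given below. The ATP-gated channel P2rx4 rose to 491 ± 58.2 from 342 ± 17.1 CPM (SD, n = 3 each, adjusted p = 0.00404). Enpp1, a nucleotide pyrophosphatase, stood at 36.1 ± 5.38 against 51.7 ± 3.81 CPM (SD, n = 3 each, adjusted p = 0.0492). Adora2a, an adenosine receptor, had 0 counts in the TpMo-derived and 54 in the Ly6Chi-derived libraries together (adjusted p = 0.0278). With 16 to 20 counts in each Ly6Chi-derived library, it passed the count filter only through that group. The filter thus fixed its direction, and its call is a description and not a test. Against a floor of 3 counts per library Adora2a was 5.81-fold lower. As mates count separately, that floor may be too low and this fold too high to serve as a lower limit. The calls of Enpp1 and Adora2a were lost when any 1 library of either group was left out (adjusted p up to 0.159 and 0.114), and the count then fell from 3 to 1, or to 2 without Ly6Chi-derived replicate 2. With RLE size factors in place of TMM the call of Enpp1 was lost as well, which left a count of 2. P2ry6, the UDP receptor that drives phagocytosis in microglia, was at 388 ± 31.4 against 399 ± 13.5 CPM and was not called. P2ry14, in the same cluster as P2ry12 and P2ry13, had a log2 fold change of -0.73 ± 0.34 (SE) and did not pass either.

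Relatives and partners of the members were mostly silent. Of 17 listed, 10 were too low to test, 6 of them with 0 counts, among them the Aif1 relative Aif1l. Of the 7 tested, 2 rose (Cd5l and Adam17) and 0 fell, or 28.6% against 12.3% of all genes, with a median of -0.04. Fcrl1 was among the 5 that did not pass. Of the proteases that release fractalkine, Adam17 rose to 367 ± 10.9 from 278 ± 24.3 CPM (SD, n = 3 each, adjusted p = 0.00744) and Adam10 did not pass, with -0.20 ± 0.08 (SE).

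Genes that mark activated, disease-associated microglia were split. All 25 were tested, of which 4 rose, 9 fell and 12 did not pass. The called share was 52.0%, against 12.3% of all genes, and the median log2 fold change was -0.01, against 0.01. Apoe, a lipid carrier, rose by 3.25 ± 0.26 (SE) on the log2 scale (adjusted p = 1.09e-04), while the integrin chain Itgax and the beta-glucan receptor Clec7a fell, with -3.08 ± 0.22 and -1.64 ± 0.11 (SE, adjusted p = 2.40e-05 and 2.26e-05). The protease Ctsd also fell, with -0.45 ± 0.04 (SE). Tyrobp, the adaptor of Trem2, was at 176 ± 16.9 against 166 ± 22.4 CPM. In microglia, genes of this list are known to rise as the homeostatic set falls, though not all at the same stage. Here Apoe and Fcrls were both higher in TpMo-derived, and Itgax, Clec7a and Tmem119 all higher in Ly6Chi-derived macrophages. By the same values, Itgax and Clec7a were lower where Fcrls was higher, and Apoe was higher where Tmem119 was lower. Pairs of both kinds thus occurred, and whether the activated and homeostatic genes are linked here was not tested.

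Genes of the macrophages at the borders of the brain were higher in TpMo-derived macrophages in 10 of 12 tested, and 0 were lower. This list too was chosen with earlier results of these data known, so the count is a description and not a test. The median log2 fold change was 1.05, against 0.01 for all genes, of which 6.54% were called higher. Siglec1, a sialic acid receptor, rose to 96.3 ± 20.4 from 18.6 ± 2.38 CPM (adjusted p = 3.25e-05), the mannose receptor Mrc1 to 698 ± 97.2 from 276 ± 28.5 CPM (adjusted p = 4.15e-05), the endocytic adaptor Dab2 to 1565 ± 83.0 from 873 ± 47.4 CPM (adjusted p = 2.77e-05) and the lectin Clec12a to 640 ± 45.2 from 378 ± 22.7 CPM (SD, n = 3 each, adjusted p = 1.24e-04). Stab1, a scavenger receptor, was 0.55 ± 0.06 (SE) higher on the log2 scale. Pf4, which platelets also carry, rose by 2.34 ± 0.26 (SE), and the platelet chemokine Ppbp stood at 3.07, 1.04 and 3.12 CPM against 0.363, 0 and 0 CPM (adjusted p = 0.0733). The platelet genes Gp9 and Gp1bb had 0 counts in every library, and the part of platelet RNA in these values was not tested. Cbr2 and Folr2 did not pass, and Lyve1, Cd209f and Ccl24 were too low to test. The count was 8 without Ly6Chi-derived replicate 1 or 2. Calls in this direction were not particular to the border list, as 4 of the 8 macrophage markers given above were also higher and 1 was lower.

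**Figure D5:**
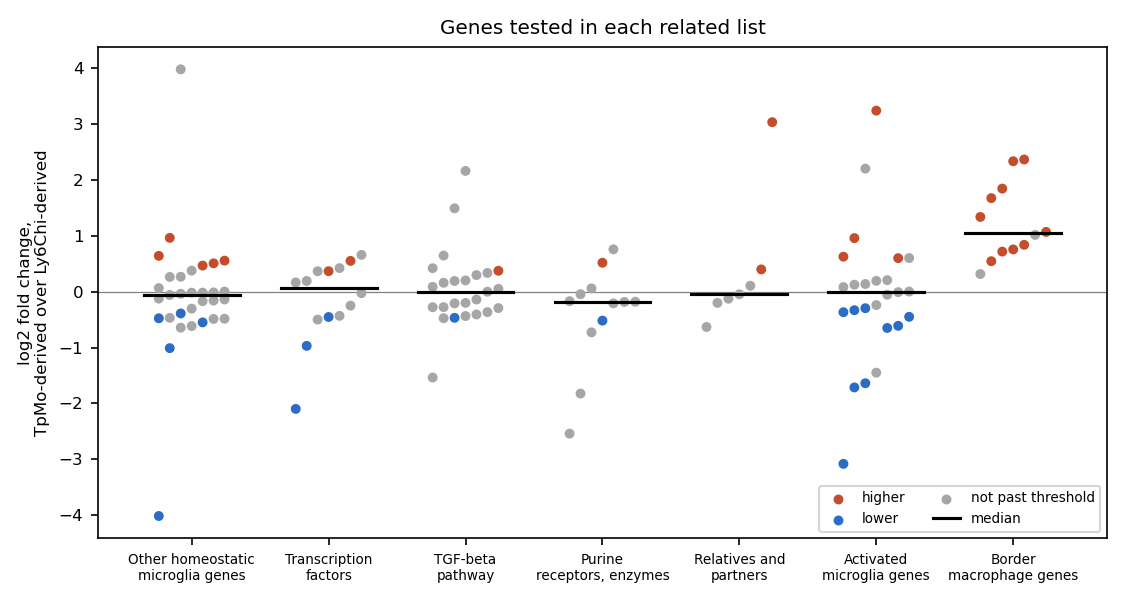
Log2 fold change (vertical axis, TpMo-derived over Ly6Chi-derived) of each tested gene of 7 related lists, by list. Red points rose, blue points fell, grey points did not pass, and black lines are the medians, which lie within 0.2 of 0 in 6 lists and at 1.05 for border macrophage genes. Adora2a, with 0 counts in one group, is not drawn.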

How the data were processed

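RNA-seq was done on 3 TpMo-derived and 3 Ly6Chi-derived macrophage libraries. The values are whole-number read counts of each gene as the authors deposited them, made with featureCounts 1.6.3 on the GENCODE M22 annotation, per the file header. Its command names no option for pairs, strand, multi-mapped reads or overlapping genes, so that by its defaults mates count separately, strand is ignored and ambiguous reads are left out. STAR and GRCm38 are named in the submitters' processing notes. The deposited table also gives each gene's exonic length, used for TPM. The library totals give a floor of 3 counts at 0.0908 to 0.126 CPM, for counting error only. It takes counts as independent, so where both mates of a fragment were counted the true floor is higher.

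Symbols came from GENCODE M21, where 55394 identifiers matched and 93 did not. Genes passing filterByExpr (minimum count 10, minimum total 15) were scaled by TMM and tested with the robust quasi-likelihood test of edgeR 4.0.16 (R 4.3.3), with Benjamini-Hochberg adjustment over 13140 genes and a threshold of 0.05. Positive log2 fold changes mean higher in TpMo-derived macrophages. Alternatives were other scalings and filters, DESeq2 1.42.0, limma-voom (limma 3.58.1) and leaving out each library. On simulated counts of the 12633 genes that passed the filter, the fit recovered 51.6% of 2-fold and 75.0% of 4-fold changes. Members and lists were chosen with earlier results of these data known. Besides all members, the text names in each list up to 4 called genes with the smallest p and the 2 most abundant, and genes beside the members. Other list members are named to show genes at 0 or not passing and were chosen after their values were seen, as were the promoters and motifs shown. Some genes that these rules name are not reported here. Replicates were numbered in accession order.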

Additional observations from a re-analysis of the deposited data

How the results depend on the processing

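The calls of the 5 members were the same in all 12 alternative fits. The count of 6 members without overlap was the same on library totals and as TPM, the alternatives run for it. Among the members, the sign turned only for Olfml3, as given above. Scaling by library size alone moved all log2 fold changes by a median of -0.05. The count of changed genes among all tested, 1620, ranged from 976 to 1492 when 1 library was left out (over 1.5 times fewer without TpMo-derived replicate 3 or any Ly6Chi-derived library), with 531 to 750 higher (859 with all) and 445 to 742 lower (761 with all). In the same fits the other homeostatic genes gave 6 to 10 calls, the TGF-beta pathway 1 to 3 and purine signalling 1 to 2. With DESeq2 the TGF-beta pathway gave 5 calls rather than 2, and without a count filter purine signalling gave 5 rather than 3. The causes were not tested. No paired analysis was possible because the labels give no replicate numbers. P2ry12, P2ry13 and Gpr34 rest on 34 to 288 counts per library, and the biological coefficient of variation fitted for them was 38.0%, 40.6% and 41.2%. For Sall1, depth sets the floor given above.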
